A study of Mus musculus with 4 samples.

Results

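Messenger RNA of the CA1 field of the mouse hippocampus was compared between drugged, fear-conditioned mice and drugged, unconditioned mice 4 h after training. Both groups were young C57BL/6J males, an inbred strain, and both carried the same drug, MK-801, at a labelled dose of 300 micrograms per g body weight. That figure is printed as labelled and is larger than mouse doses of this drug normally are. The MK C+S group was trained 1 h after the injection with 3 foot shocks of 1 s at 0.5 mA, each preceded by 2 min in an unfamiliar chamber, and its RNA was taken 4 h after the last shock. The MK group had the injection alone, and its RNA was taken at the matching time. MK RNA carried the green dye and MK C+S RNA the red dye on a single array with 2 colours. The same pair of groups was hybridised in the same dye orientation at 1, 2 and 6 h, which makes 4 arrays in all. Every sample analysed here came from mice given MK-801. Neither the number of animals behind an array nor any pooling of their RNA is stated in the labels.

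The genes described are those with a measured value on the 4 h array: 10312 of the 10622 genes with a value on any of the 4 arrays. An exact 0 was read as not measured, the median of the array was subtracted, and the spots of a gene were averaged. The same steps gave 9162, 10151 and 10102 genes on the 1, 2 and 6 h arrays. Values are log ratios in the units deposited. Neither the base of the logs nor the direction of the ratio is stated, so a fold is given as it would be with base 10, and a sign is the sign of the deposited value. If the ratio is red over green, a positive value stands for a transcript more abundant after training. Ratios carry no absolute level, so the presence of markers of CA1 tissue could not be checked. No value at 4 h has a replicate, and dye and conditioning cannot be told apart.

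MK-801 blocks the open channel of NMDA receptors, the glutamate receptors whose calcium entry starts synaptic plasticity in CA1 pyramidal neurons. Contextual fear conditioning pairs a place with a foot shock, and memory of the place depends on the hippocampus and is weakened when NMDA receptors are blocked during training. Neuronal activity normally switches on immediate early genes, which encode transcription factors such as Fos and Egr1, synaptic effectors such as Arc, and phosphatases that turn MAP kinase signalling down again. Many of these genes are reached by the factors CREB and SRF, which bind short DNA motifs near the start of transcription.

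At 4 h the immediate early genes leaned to positive log ratios, led by the MAP kinase phosphatases Dusp6 and Dusp1, the activin subunit Inhba and the synaptic gene Arc. CA3 pyramidal markers and markers of blood vessels leaned to negative values, and astrocyte markers to positive ones. Fos and Egr1 themselves lay close to 0. Single genes reached much larger values, from 1.03 for Phlda3 to -2.21 for Car1, and the 12 highest and 12 lowest genes were each read from 1 spot. No gene passed adjustment in the test run here, of 4 h against the other times.

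Over all 10312 genes, 257 (2.49%) were positive at 2-fold or more, which is 0.30 log10 units, and 472 (4.58%) were negative, together 729 (7.07%). Values above 0 numbered 5132 and values below 0 numbered 5180, so the centre of the array was even while its negative tail was longer. Past 10-fold there was 1 positive gene and there were 22 negative genes. If the logs are base 2, the same 1 positive and 22 negative genes are the only ones past 2-fold. The middle 90% of genes ran from -0.29 to 0.24. The negative tail went with position on the array: after spot number 13000, 9.19% of 4514 measured spots were negative and 1.53% positive past 2-fold, against 3.25% and 3.54% of the 10564 spots before it. With a running median along the spots removed, the negative genes numbered 373 and the positive genes 231.

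**Figure D1:**
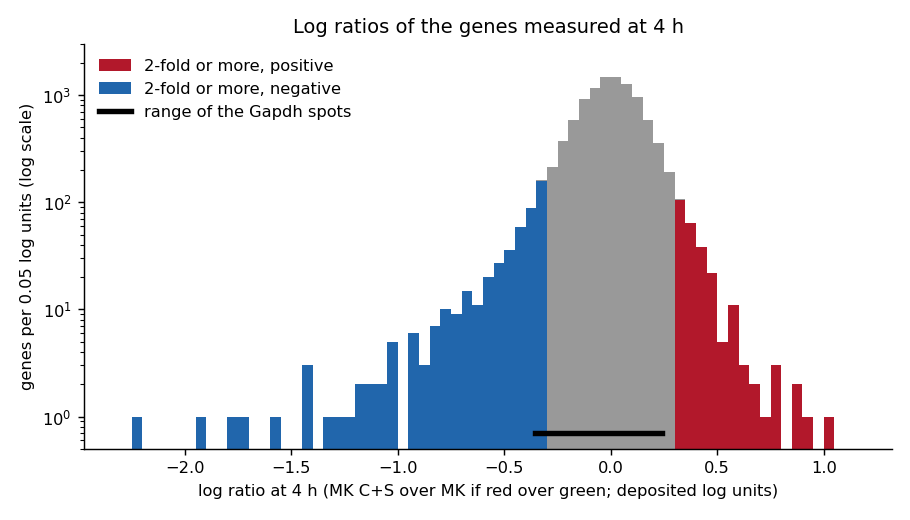
Number of genes (vertical axis, log scale, per 0.05 log units) against the log ratio at 4 h (horizontal axis, deposited log units), with genes past 2-fold in red (257 positive) and blue (472 negative) and a black bar for the range of the 25 Gapdh spots. The negative tail reaches -2.21 and the positive tail 1.03.

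Spots of the same gene show how far a single value can be trusted. Gapdh, a glycolytic enzyme spotted 25 times, had a mean of -0.0023 ± 0.14 (SD over 25 spots of 1 array), and its spots ran from -0.36 to 0.24. Pooled over genes, repeated spots had an SD of 0.17, so 2-fold is less than 2 such SDs. Of the 2284 genes with 2 spots, 54.3% had the same sign on both, and over 3038 pairs of spots of a gene the rank correlation was 0.13. This correlation is across spots of 1 array, which share its hybridisation and dyes and are not replicates. Of 7800 genes with 1 spot, 8.38% were past 2-fold, against 2.99% of the 2512 genes with more spots.

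Dusp1 was the gene whose weaker spot lay farthest on the positive side. Among genes with at least 2 spots, 7 had every spot positive past 2-fold and 6 had every spot negative, while another 6 had spots past 2-fold on opposite sides. In all, 366 genes had at least 1 spot past the size. These 13 genes on 1 side are those with at least 2 spots whose value at 4 h every spot carries at this size.

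**Figure D2:**
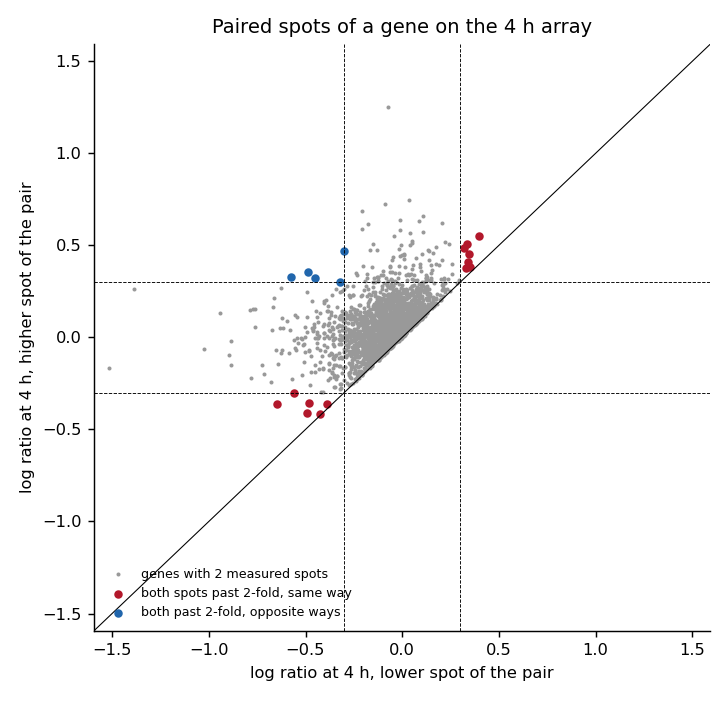
For each gene with 2 measured spots at 4 h, the log ratio of its higher spot (vertical axis) against that of its lower spot (horizontal axis), in deposited log units, with dashed lines at 2-fold. Red points have both spots past 2-fold on the same side (13 genes), and blue points have them on opposite sides.

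Immediate early genes were the list with the largest share of members on the positive side past 2-fold among lists of at least 20 genes. All 42 listed genes on the array were measured, 27 were positive, 9 were positive past 2-fold (21.4%, against 2.49% of all genes) and 2 were negative past it. Their median was 0.08 at 4 h, against -0.00095 over all genes. On the 1, 2 and 6 h arrays the median of the list was -0.03, 0.05 and 0.0036. At 2 h 29 of 42 were positive, 7 past 2-fold and none negative past it, so the lean was not particular to 4 h. With the running median removed, 7 were positive past 2-fold at 4 h, and the median was again 0.08. Of the 12 members with at least 2 spots, 2 were positive past 2-fold.

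To show the regulatory sequence of these genes, 3 promoters are printed. The Dusp1 and Srf promoters hold matches to motifs of activity-regulated factors, and that of Dusp6, the member with the largest value, holds none of the motifs searched. The promoters of Inhba, Jun and Jund, also positive past 2-fold, hold none either, and that of Gadd45b holds an EGR motif and an E-box. The 3 printed were chosen after the values were seen. Each runs from 250 bases before to 50 bases after the start of transcription, 5′ to 3′ on the strand of the gene, from RefSeq on GRCm38.p6. Dusp1 is on the minus strand at chr17:26508423-26508722, Srf on the minus strand at chr17:46556113-46556412, and Dusp6 on the plus strand at chr10:99262981-99263280. Capitals mark matches.
Dusp1: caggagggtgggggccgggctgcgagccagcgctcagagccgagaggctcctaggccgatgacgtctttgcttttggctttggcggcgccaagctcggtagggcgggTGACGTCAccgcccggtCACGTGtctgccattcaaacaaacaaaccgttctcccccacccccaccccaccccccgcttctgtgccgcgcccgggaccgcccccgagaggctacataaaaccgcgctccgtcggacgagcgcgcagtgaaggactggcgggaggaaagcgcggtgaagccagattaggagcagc
Srf: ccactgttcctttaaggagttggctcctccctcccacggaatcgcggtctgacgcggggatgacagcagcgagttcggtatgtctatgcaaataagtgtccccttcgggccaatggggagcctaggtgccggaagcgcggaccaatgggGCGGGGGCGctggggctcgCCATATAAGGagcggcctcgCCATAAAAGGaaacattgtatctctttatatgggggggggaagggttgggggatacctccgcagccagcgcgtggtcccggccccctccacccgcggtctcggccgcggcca
Dusp6: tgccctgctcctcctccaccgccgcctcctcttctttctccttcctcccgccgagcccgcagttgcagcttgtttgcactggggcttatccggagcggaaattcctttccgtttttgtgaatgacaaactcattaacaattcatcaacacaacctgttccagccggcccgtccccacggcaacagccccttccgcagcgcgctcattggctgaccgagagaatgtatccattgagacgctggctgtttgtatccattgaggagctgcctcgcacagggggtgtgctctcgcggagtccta
In Dusp1 the capitals are the cyclic AMP response element TGACGTCA, 143 bases before the start, and the E-box CACGTG, 126 bases before it. In Srf they are an EGR motif GCGGGGGCG, 101 bases before the start, and 2 SRF CArG boxes, 82 and 62 bases before it.

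Both strands were searched for 6 motifs: TGACGTCA (CREB), TGANTCA (AP-1), GCGNGGGCG (EGR), CACGTG (E-box), the SRF CArG box and the NF-kB site. A gene was counted if any of its promoters held a match. Shares of all promoters count each promoter on its own, so they are not the same measure as shares of genes. Of the immediate early genes measured, 33 had a promoter in the table used. TGACGTCA stood in 12.1% of them, against 2.68% of the 8202 measured genes with a promoter and 1.79% of all 32851 promoters in the table. GCGNGGGCG stood in 33.3%, against 10.4% of measured genes and 5.55% of all promoters. CACGTG stood in 30.3%, against 10.6% and 7.15%. The CArG box stood in 9.09%, against 1.83% and 1.63%, and the NF-kB site in 21.2%, against 6.14% and 4.51%. TGANTCA went the other way, in 3.03% against 8.05% and 7.81%. Of the immediate early genes positive past 2-fold, 7 had a promoter. GCGNGGGCG and CACGTG each stood in 2 of these, TGACGTCA and the CArG box each in 1, and TGANTCA and the NF-kB site in 0.

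Genes past 2-fold at 4 h had shares closer to those of all measured genes than the immediate early list had. Of 204 positive genes past 2-fold with a promoter, 2.94% held TGACGTCA, against 3.21% of 374 negative genes. GCGNGGGCG stood in 14.2% of the positive and 7.49% of the negative genes, and CACGTG in 10.8% and 9.63%. TGANTCA stood in 6.37% and 8.02%, the NF-kB site in 8.82% and 6.42%, and the CArG box in 3.43% and 2.14%. None of these shares was tested, and a match is a run of letters, not a site shown to be bound.

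Dusp6, a cytoplasmic phosphatase that inactivates ERK, had 0.75 at 4 h, which would be 5.65-fold, and -0.04 at 1 h and 0.03 at 2 h. It was not measured at 6 h. Its 4 h value rests on 1 spot. Dusp1, the nuclear phosphatase of MAP kinases and a gene induced by glucocorticoids, had 0.40 and 0.55 on its 2 spots at 4 h, a mean of 0.47 or 2.97-fold. The same gene had -0.22 at 1 h, 0.03 at 2 h and 0.03 at 6 h, so the 4 h array alone was past 2-fold. Against the other times the difference of Dusp1 was 0.53 (SE 0.16), with adjusted p = 1.00 in limma.

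Inhba, which encodes a subunit of activin, had 0.15, 0.40, 0.58 and 0.04 at 1, 2, 4 and 6 h. Arc, which drives removal of AMPA receptors from synapses, had -0.19, 0.38, 0.52 and 0.18. Both were past 2-fold at 2 and 4 h and below it at 1 and 6 h. Each rests on 1 spot per array.

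The AP-1 factors did not share a sign. Jund had -0.27, -0.26, 0.39 and -0.07 at 1, 2, 4 and 6 h, and it alone of the listed genes was negative on all 3 other arrays and positive past 2-fold at 4 h. Jun had 0.31 at 4 h, Fosl1 0.35 and Junb 0.27. Fos had -0.05 and Fosl2 -0.15. Of these genes, Jund, Fosl1 and Jun were past 2-fold. Srf, the serum response factor itself, had 0.24, 0.31, 0.38 and 0.16 at 1, 2, 4 and 6 h, positive on every array. Gadd45b, a stress-induced regulator of DNA demethylation, had 0.30, with its 2 spots at 0.14 and 0.47.

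Among the EGR and NR4A factors, Egr1 had -0.44, 0.31, -0.0080 and -0.29 at 1, 2, 4 and 6 h. Nr4a1 had 0.03 at 4 h. Bdnf, the neurotrophin induced by activity in these neurons, had -0.05. The 2 listed genes negative past 2-fold were the Kruppel-like factors Klf4 at -0.37 and Klf6 at -0.32.

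**Figure D3:**
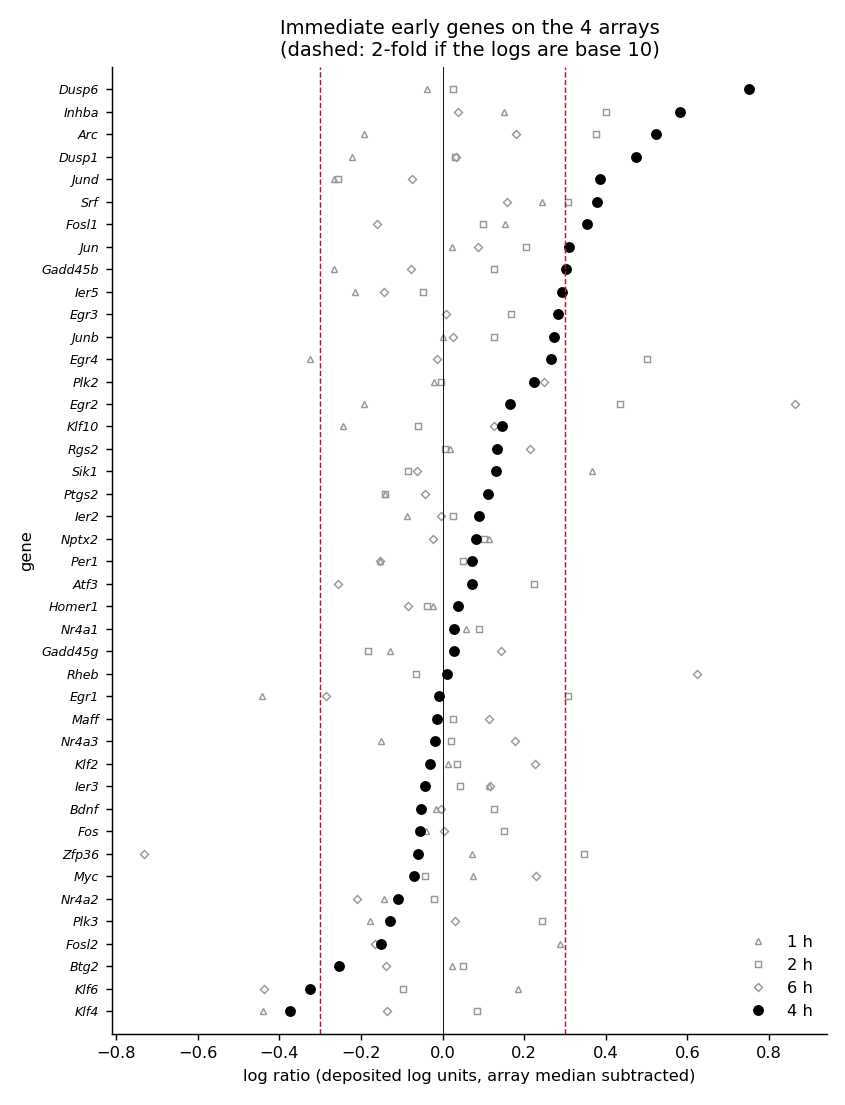
Log ratios (horizontal axis, deposited log units) of the 42 immediate early genes (vertical axis, ordered by the 4 h value), with black circles for 4 h and open grey symbols for 1, 2 and 6 h, and dashed lines at 2-fold. The 9 genes from Dusp6 down to Gadd45b lie beyond the right-hand line at 4 h, and Klf6 and Klf4 beyond the left-hand one.

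Lists of genes upstream of these had small medians, though single members had large values. CREB, CREM and ATF factors had 8 of 15 positive and a median of 0.0065, and Creb1 had -0.02 on both of its spots. Atf2, a stress-kinase target of this family, had -1.04 from 1 spot, with -1.99 at 2 h and -0.12 at 6 h. Rel and NF-kB subunits with their inhibitors and adaptors had 7 of 16 positive, none past 2-fold and a median of -0.02. Rel had 0.02, and Traf2, an adaptor of tumour necrosis factor receptors, was the lowest at -0.27. In the MAP kinase cascade 22 of 42 were positive, with a median of 0.03. Past 2-fold, 3 were positive (7.14%) and 2 negative (4.76%), against 2.49% and 4.58% of all genes.

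The dual-specificity phosphatases, of which not all are MAP kinase phosphatases, did not share a sign at 4 h. Dusp6 and Dusp1 were positive, whereas Dusp3 had -0.77 from 1 spot and Dusp12 -0.36. Dusp3 was 0.02, 0.22 and 0.07 at 1, 2 and 6 h, and its difference from the other times was -0.87 (SE 0.14). Map3k11, a kinase that activates JNK, had 0.45. The CaMK, PKA and PKC kinases had 14 of 30 positive and 1 gene (3.33%) past 2-fold on each side. Camk2a, the abundant synaptic kinase, had 0.09.

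The list of ionotropic glutamate receptors and scaffolds of the postsynaptic density holds the NMDA receptors that MK-801 blocks, and other receptors beside them. It had 15 of 24 positive, 2 past 2-fold on the positive side (8.33%, against 2.49% of all genes) and none on the negative side. The list had a median of 0.03, and of -0.07, 0.0099 and -0.08 on the 1, 2 and 6 h arrays. Gria1, the AMPA receptor subunit that moves into synapses during potentiation, had -0.39, -0.04, 0.33 and -0.18 at 1, 2, 4 and 6 h. The kainate subunit Grik5 had 0.34 and the AMPA subunit Gria3 -0.21. The NMDA subunit Grin2a had -0.20. At 4 h 17 of the 22 members with all arrays lay above their mean at the other times, against 3947 of 8553 genes.

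Among inhibitory genes, GABA-A and glycine receptor subunits had 6 of 15 positive and a median of -0.06. None was positive past 2-fold and 2 (13.3%) were negative past it, against 4.58% of all genes. These were Gabre at -0.33 and Glra3 at -0.33, each from 1 spot. Gabra2 had 0.25 and Gabrb2 0.24, each from spots of opposite sign. Markers of GABA neurons were even, with 8 of 16 positive. One of them, the calcium buffer calretinin (Calb2), had 0.39 from spots at 0.11 and 0.66. In the neurotrophin family Ntrk2, the receptor of Bdnf, had -0.31.

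In the lists of channels and of transmitter release no gene was positive past 2-fold, against 2.49% of all genes. Negative past it were few genes, beside 4.58% of all genes, and these shares were not tested. Of 62 potassium channel genes 1 (1.61%), Kcnj1, was negative past 2-fold at -0.38. Of 31 sodium and calcium channel genes 1 (3.23%) was, the N-type calcium channel Cacna1b at -0.88. Cacna1b was negative past 2-fold on all arrays (-0.55, -0.64 and -1.08 at 1, 2 and 6 h). Of 60 synaptic vesicle and SNARE genes, 26 were above 0 and 2 (3.33%) were negative past 2-fold. Vamp1, a vesicle SNARE, accounted for the extreme, with -1.78 at 4 h from 1 spot and 0.02, -0.10 and -0.33 at 1, 2 and 6 h.

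Hippocalcin (Hpca), a calcium sensor abundant in hippocampal pyramidal neurons, was positive on both spots, 0.34 and 0.45. At 1, 2 and 6 h it had -0.44, -0.13 and -0.34, so 4 h stood alone with a positive sign. Its difference from the other times was 0.70 (SE 0.17), adjusted p = 1.00 in limma. Arf5, a small GTPase of membrane traffic, had spots at 0.33 and 0.51, against -0.65 at 1 h, -0.55 at 2 h and -0.06 at 6 h. The Arf and Arl family as a whole had 7 of 16 positive.

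The other genes positive on all spots were the chaperone Dnajc7 (0.35 and 0.38), the translational regulator Impact (0.34 and 0.41), the kinase Stk25 (0.33 and 0.38) and the transcription factor Ascl2 (0.32 and 0.48). On the negative side stood the ESCRT subunit Chmp3 (-0.43 and -0.41), the growth factor receptor Fgfr4 (-0.49 and -0.41), the organic anion carrier Slco1a1 (-0.65 and -0.36), the myelin protein Mal (-0.39 and -0.36), the cell cycle inhibitor Rprm (-0.48 and -0.36) and the coatomer subunit Copg2 (-0.56 and -0.30). Slco1a1 was also negative at 2 h (-0.62) and 6 h (-0.66). Mal, by contrast, had 0.03, -0.0064 and -0.01 at 1, 2 and 6 h.

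Markers of neighbouring fields and of other cell types also had values away from 0, and their part in the other results was not tested. CA3 pyramidal markers were the lowest list with at least 10 members. Of 10 measured, 9 were negative and 5 (50%) were negative past 2-fold, against 4.58% of all genes, with a median of -0.28. The medians at 1, 2 and 6 h were -0.10, -0.10 and -0.05. With the running median removed, 5 of the 10 were negative past 2-fold at 4 h and the median was -0.25. The RNA-binding protein Elavl2 had -0.55, the deiodinase Iyd -0.42, the adhesion molecule Nectin3 -0.42, the zinc finger factor Plagl1 -0.36 and the BCL2-family gene Bok -0.36. The 4 spots of Nectin3 ran from -1.28 to 0.09 and the 2 of Plagl1 were -0.66 and -0.07, so these means hide unequal spots.

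CA1 markers had 5 of 8 positive and a median of 0.05, from the zinc finger factor Zbtb20 at 0.75 to Dcn at -0.15. The endoplasmic reticulum protein Wfs1 had 0.24. Dentate granule markers had 3 of 8 positive, 5 negative and a median of -0.05, from Neurod1 at 0.34 to Cdkn1b at -0.19. In each list 1 gene (12.5%) was positive past 2-fold, against 2.49% of all genes, and none was negative past it. In bulk tissue, fewer cells of a type and less RNA per cell cannot be told apart.

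Astrocyte markers had 17 of 23 positive, 4 past 2-fold on the positive side (17.4%, against 2.49% of all genes) and 1 on the negative side, with a median of 0.05. At 2 h 16 of 22 were positive with a median of 0.06, and at 6 h 19 of 23 with a median of 0.10, so 4 h was not the highest. Of the 21 members with all arrays, 8 lay above their mean at the other times, against 3947 of 8553 genes. With the running median removed, 16 were positive at 4 h, 4 of them past 2-fold, and the median fell to 0.028. That is below 0.035, the SD between spots over the root of the number of members. Glutamine synthetase (Glul) had -0.12, 0.15, 0.50 and 0.26 at 1, 2, 4 and 6 h. The metal-binding protein Mt3 had -0.15, 0.01, 0.41 and 0.02. The deiodinase Dio2 had 0.27, 0.64, 0.41 and 0.23, and the water channel Aqp4 had -0.32, -0.13, 0.32 and 0.01. Slc1a3, the glutamate transporter of the same cells, had -0.31 from spots between -0.51 and -0.09.

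Markers of blood vessels leaned the other way, with 26 of 32 negative, 4 negative past 2-fold (12.5%, against 4.58% of all genes), none positive past it and a median of -0.11. The carrier Slco1a4 had -0.53, Ramp2 -0.39, endoglin (Eng) -0.36 and the VEGF receptor Kdr -0.32. The list had medians of -0.06, -0.06 and 0.05 at 1, 2 and 6 h. With the running median removed, 25 were negative at 4 h, 6 of them past 2-fold, and the median was -0.08. Choroid plexus markers had 6 of 12 positive with a median of -0.0011. Their most abundant product, transthyretin (Ttr), had -1.27 from 1 spot, while Kcne2 had -0.02, Folr1 0.04 and Sostdc1 0.07. Microglia markers had 15 of 24 positive, with none positive and 1 negative past 2-fold (4.17%, against 4.58% of all genes). This gene, Fcgr2b, had -0.84 from unequal spots at -1.52 and -0.17. Myelin markers had 10 of 21 positive, with none positive and 2 negative past 2-fold (9.52%), Mal at -0.38 and Sox10 at -0.33.

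**Figure D4:**
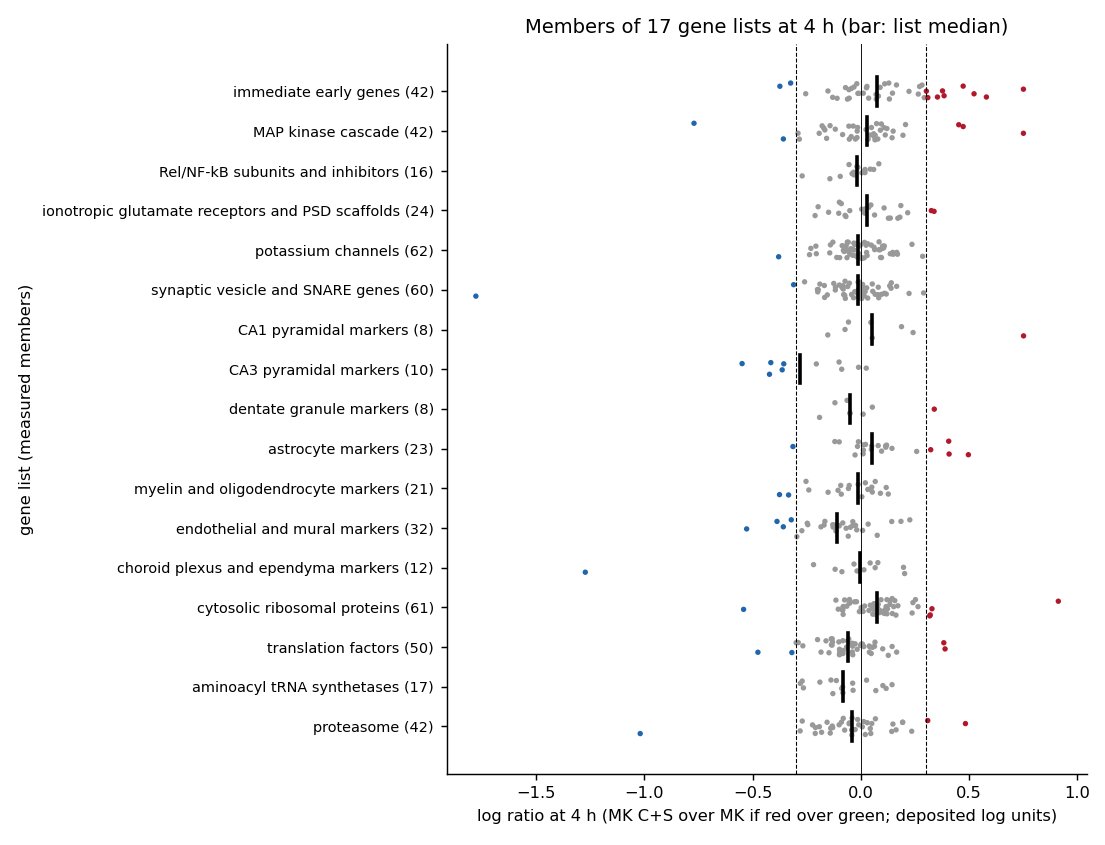
Log ratios at 4 h (horizontal axis, deposited log units) of the measured members of selected gene lists (vertical axis, members in brackets), 1 point per gene, with a black bar at each median and dashed lines at 2-fold. The median of CA3 markers lies at -0.28 and that of immediate early genes at 0.08.

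Genes of protein synthesis did not share a sign. Cytosolic ribosomal proteins had 44 of 61 positive and a median of 0.08, whereas translation factors had 16 of 50 positive and a median of -0.06 and aminoacyl tRNA synthetases 5 of 17 positive and a median of -0.08. Among factors, the release factor Gspt1 had -0.48 and the helicase Eif4a1 0.38. Eif6 had 0.39 from spots at 0.04 and 0.74. The synthetases Nars, Qars and Lars had -0.28, -0.27 and -0.26. Mitochondrial ribosomal proteins had 28 of 60 positive and a median of -0.02. Respiratory chain genes had 38 of 63 positive, with 3 (4.76%) past 2-fold on each side. Over all genes these shares were 2.49% positive and 4.58% negative.

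Protein turnover genes were more often negative. Proteasome genes had 26 of 42 negative and a median of -0.04, and ubiquitin genes had 56 of 94 negative and a median of -0.05. Over all genes 5180 of 10312 were negative. Past 2-fold, 2 proteasome genes were positive (4.76%) and 1 negative (2.38%). Of the ubiquitin genes 1 was positive (1.06%) and 5 negative (5.32%) past it, against 2.49% and 4.58% of all genes. Psma2, a core subunit and the only proteasome gene negative past 2-fold, had -1.02 from 1 spot. Psme1, of the proteasome activator, had 0.48. The F-box protein Fbxw2 had -0.79.

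Splicing and RNA-binding factors had 52 of 110 positive. Past 2-fold, 7 were positive (6.36%) and 10 negative (9.09%), against 2.49% and 4.58% of all genes. Hnrnpl had 0.86 and the splicing repressor Srsf10 had -0.82. Fmr1, the RNA-binding protein lost in fragile X syndrome, had -0.63, -0.30, -0.57 and -0.07 at 1, 2, 4 and 6 h. In the list of glucocorticoid and stress genes, Dusp1 and Gadd45b were positive past 2-fold (8.70% of 23 measured), and none was negative past it. Of 45 apoptosis regulators, 3 were positive past 2-fold (6.67%), Phlda3, Cflar (0.57) and Trp73 (0.44), and 2 negative (4.44%), Diablo (-0.92) and Bok.

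Some lists hold genes with little or no known use in brain, and several of them leaned as far as the lists above. Immunoglobulin and T cell receptor genes had 24 of 33 positive (72.7%) with a median of 0.07, and liver and gut genes 22 of 31 (71.0%) with a median of 0.07, against 73.9% of astrocyte markers and 64.3% of immediate early genes. Keratin, epidermal and olfactory receptor genes had 90 of 166 positive, with 9 positive (5.42%) and 17 negative (10.2%) past 2-fold, above the 2.49% and 4.58% of all genes, and a median of 0.01. Olfr49 had 0.51 and Vmn1r25 -0.90. Male germ cell genes had 17 of 26 positive, with none positive and 1 negative past 2-fold (Tcp11, at -0.36).

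The 4 h array shared its negative genes with the neighbouring arrays more often than its positive ones. Of the negative genes measured on both arrays, 26% of the 4 h genes were also negative past 2-fold at 2 h and 51.03% at 6 h, or 31.0% and 19.9% of the genes of those arrays. Of the positive genes, 15.2% were shared with 2 h and 24.9% with 6 h, or 14.6% and 5.69% of those arrays. With 1 h the shares were 9.09% for positive and 5.67% for negative genes, or 3.93% and 8.54% of the 1 h genes. These shares stand beside unequal arrays: 21.9% of all genes were past 2-fold at 6 h, 6.58% at 2 h and 8.47% at 1 h. Of the 9927 genes on both the 4 and 6 h arrays, 1113 were negative and 1002 positive past 2-fold at 6 h. At 2 h these counts were 377 and 240 of 10001, and at 1 h 281 and 458 of 8916. Over all genes the values correlated with 1 h at r = -0.01, with 2 h at r = 0.36 and with 6 h at r = 0.35, across genes that share spots and dyes.

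Of 172 positive genes with a value on all arrays, 92 were past 2-fold at 4 h alone, and of 385 negative genes, 134 were. Past 2-fold with the same sign at 2, 4 and 6 h there were 6 positive and 65 negative genes. Diablo, a mitochondrial activator of caspases, was of this kind, with -1.30, -0.92 and -1.54 at those times. Cacna1b was 1 of 5 genes negative past 2-fold on all arrays.

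The 4 h array was compared with the mean of the other times in limma over the 8553 genes with all 4 values, with 2 residual degrees of freedom. After Benjamini-Hochberg adjustment, 0 genes (0.0%) passed, and 171 had an unadjusted p under 0.05, 108 above and 63 below the other times, where 5% of the genes tested would be 427.65. The lowest adjusted p was 0.719, for Vamp1 and Phlda3. The comparison sets times against each other, not conditioned against unconditioned mice, and with a single array at 4 h a count of 0 does not show that genes were alike. Without the 6 h array 3 genes passed: Vamp1, Slc10a2 and Stpg3, each with adjusted p = 0.0288 in limma. Of these, Slc10a2 had 0.12 at 4 h and was set apart by the other arrays.

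By size relative to its error, the difference was led on the negative side by Vamp1 (-1.64, SE 0.17), Dusp3, Mageh1 (-0.85) and Ywhah (-0.70), an adaptor of the 14-3-3 family. On the positive side it was led by Phlda3 (1.19, SE 0.13), Rpl35a (1.06), Gpbp1l1 (1.07) and Nfs1 (0.79). The 2 spots of Nfs1, a cysteine desulfurase of iron-sulfur cluster assembly, were -0.07 and 1.25 at 4 h and do not agree. Ifngr2, a chain of the interferon gamma receptor, had 0.61 at 4 h and -0.23, -0.17 and -0.47 at 1, 2 and 6 h. Of 37 immediate early genes tested, 24 lay above their mean at the other times, against 3947 of 8553 genes. The median difference of the list was 0.08, against -0.01 over all genes.

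**Figure D5:**
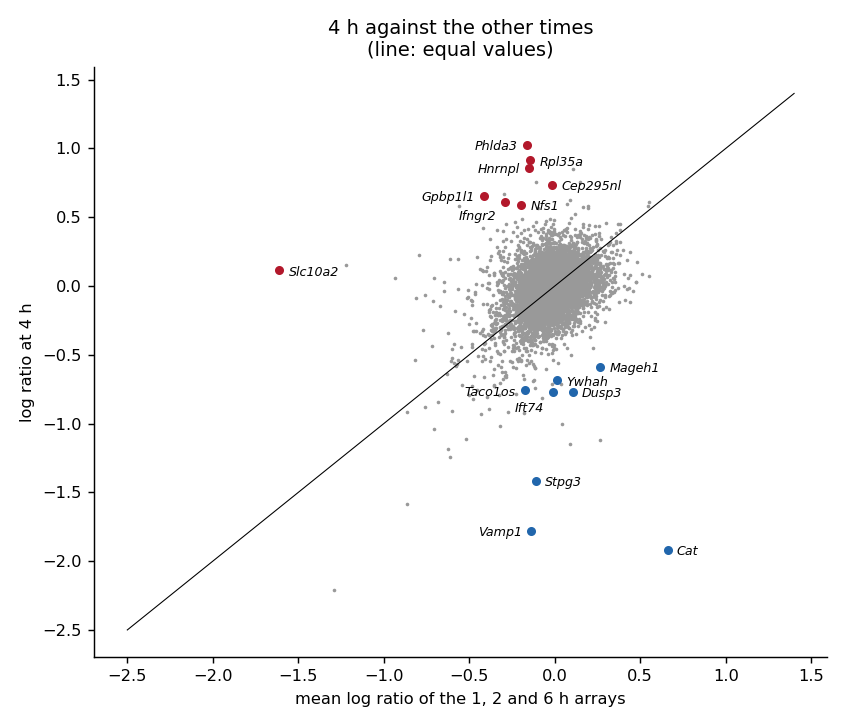
Log ratio at 4 h (vertical axis) against the mean log ratio at 1, 2 and 6 h (horizontal axis), both in deposited log units, for 8553 genes, with a line at equal values. The 8 genes with the strongest difference each way are named; Phlda3, at 1.03, is the highest and Cat, at -1.92, the lowest of them at 4 h.

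The 12 lowest genes at 4 h each rested on 1 spot, and 10 of these spots were numbered above 13000, against 1 of the 12 highest. Dck, a kinase that salvages deoxynucleosides, had -1.74 after -0.37 at 1 h and -1.15 at 2 h. Clcc1, a chloride channel protein of the endoplasmic reticulum, had -1.43 after -0.03 and -0.62. Senp7, a SUMO protease, had -1.42 after 0.12 and -0.68. These 3 were not measured at 6 h, and each was lower at 4 h than at 2 h. Ccdc80, a matrix protein, had -0.20, -0.87, -1.19 and -0.81 at 1, 2, 4 and 6 h, and Cntnap4, a neurexin-family adhesion protein, had -0.14, -0.63, -1.24 and -1.07. Stpg3 had -1.41 against 0.10, 0.06 and -0.50.

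Of the 12 highest genes, Sox11 (0.75), a transcription factor of immature neurons, and Slc27a4 (0.62), a fatty acid transporter, are joined by Mtf2 (0.67), a Polycomb protein. Dab1, the adaptor of reelin signalling, had 0.38, -0.07, 0.85 and 0.01 at 1, 2, 4 and 6 h. The highest 12 also held 3110082I17Rik, which had 0.58, 0.51, 0.61 and 0.56, past 2-fold on every array. The mitochondrial ribosomal gene Mrps24 had a like series, 0.56, 0.56, 0.58 and 0.52. Their 4 h values are therefore not particular to that time.

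At the edge of the size used, Ccnd2 at 0.3013 and Med19 at 0.3015 were just inside on the positive side, and Cracd at 0.3009 and Astn2 at 0.3005 just outside. On the negative side Ngly1 at -0.3011 was just inside and Clec7a at -0.3006 just outside.

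Large values were not spread evenly over the array. In 93 blocks of 200 consecutive spots, the share past 2-fold ran from 2.11% to 19.6%, against 7.97% over all spots, and block medians ran from -0.13 to 0.08. Beyond spot 13000, a division chosen after the block medians were seen, all 28 blocks had a negative median, against 21 of the 65 before it. The highest share, 19.6%, stood in the block from spot 17801 to spot 18000, and the next, 18.0%, in the block just before it. Dense blocks also lay before spot 13000, with 17.2% of 29 measured spots from 9201 to 9400 and 16.9% of 177 from 801 to 1000. Exact zeros made up 7.39% of the 16281 spots at 4 h, the lowest share of the 4 arrays, whose shares reached 22.7%. Beyond the removal of the running median, the part of spot position in the values was not tested.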

How the data were processed

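RNA of the MK and MK C+S groups was hybridised with Cyanine-3 and Cyanine-5 to 1 array per time, as the labels give it. The authors deposited 1 log ratio per spot, read here as log10, with scale, centring and direction not stated. The median of the deposited 4 h column was 0 with exact zeros included and 0.00073 without them. The scanner and the steps from image to ratio are not stated in the labels or the table, and no intensities were used, so precision rests on the number of arrays and on repeated spots.

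Of 16281 spots, 13738 named 1 gene, 52 several and 2491 none, by the platform annotation. Entrez identifiers of 13694 spots matched RefSeq (GRCm38.p6). Exact zeros were left out, the array median subtracted and the spots of a gene averaged (Python 3.11.15, pandas 2.3.3). Genes were counted at 2-fold. The 4 h array was tested against the mean of the other arrays with limma 3.58.1 under R 4.3.3 (lmFit, then eBayes, two-sided; statmod 1.5.0 for array weights). Adjustment followed Benjamini and Hochberg at 0.05, and the fit was tested on simulated data. Its error is the spread between times.

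The members, the 56 gene lists and the naming rule were chosen with earlier results of these data known. The rule named the 12 highest and 12 lowest genes, genes with all of at least 2 spots past 2-fold, up to 4 genes per list by absolute value and 1 on the other side, the 8 strongest differences each way and a few fixed genes. Chosen after their values were seen were Srf, Jun, Jund, Fosl1, Fosl2, Klf6, Dusp12, Grin2a, Bok, Kcne2, Folr1, Sostdc1, Gapdh, the genes at the edge of the size, the promoters printed and the lists described first. Alternatives covered the size, the log base, centring, zeros, the summary of spots, spot position, scaling, array weights and each other array left out.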

Additional observations from a re-analysis of the deposited data

Results flagged for a closer look

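Among the 12 highest and 12 lowest genes at 4 h, 5 were past 2-fold in one direction at 4 h and in the other direction on another array. Each has 1 array per time, and the difference between those 2 arrays was not tested. Catalase (Cat), the peroxisomal enzyme that breaks down hydrogen peroxide, had -1.92 at 4 h, against 1.57, -0.19 and 0.60 on the 1, 2 and 6 h arrays. Hnrnpl had 0.86 at 4 h and -0.36 at 1 h. Sox11 had 0.75 at 4 h and -0.43 at 1 h. Mtf2 had 0.67 at 4 h, -0.69 at 1 h and -0.34 at 6 h. Gpbp1l1 had 0.66 at 4 h and was negative past 2-fold at the other times, with -0.56, -0.33 and -0.36.

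Spots with no gene name entered no comparison. Of 1935 measured at 4 h, 152 were past 2-fold, 56 positive and 96 negative, a share of 7.86% against 7.96% of the spots with 1 gene.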

How the results depend on the processing

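With 257 positive and 472 negative genes as reported, the counts were 1085 and 1292 at 1.5-fold, 37 and 141 at 3-fold, 1 and 22 if the logs are base 2, 8 and 57 if they are natural logs, and 28 and 47 over the 2512 genes with at least 2 spots. The 9 positive immediate early genes became 14, 3, 0, 1 and 2 under these settings, and the 5 negative CA3 markers became 1 at 3-fold, 0 with base-2 or natural logs and 2 with at least 2 spots. The recounts over these lists were added after the data were seen. Without centring, with zeros kept, with the median of spots, after subtraction of the running median of 51 spots and with dense blocks left out (0 blocks), all of these counts stayed within 1.5 times. For each spot on its own this holds for the counts of positive and negative spots. The test against the other times called 0 genes in each alternative that kept all arrays; leaving out 1 array gave from 0 to 3 calls. The mean had the opposite sign to the median in 14 of 56 lists, among them CREB and ATF factors (-0.05), carbonic anhydrases (-0.17), antioxidant enzymes (-0.05), stress genes (0.03), apoptosis regulators (0.0054) and keratin and olfactory genes (-0.01). Removing the running median turned the sign of 6 list medians, the median of spots of 2 and keeping zeros of 1. Of all these, 2 had a median larger than its spread, taken as the SD between spots over the root of the number of members: protein phosphatases, at 0.0045 with the running median removed, and matrix genes, with a mean of -0.013. No named gene past 2-fold turned sign. No paired analysis was possible because each group has 1 array. One array at 4 h, one dye orientation and an unstated log base limit every value above.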
